A study of Rattus norvegicus with 9 samples.

Results

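Complement is a cascade of plasma and tissue proteins. C1q, built from A, B and C chains, recognises a target and switches on the proteases C1r and C1s, which cleave C4 and C2. The fragments form an enzyme that cleaves C3, the step on which all routes of the cascade converge, and factor B (Cfb) supplies the corresponding protease of the alternative pathway. Small fragments of C3 and C5 act on cells through C3ar1 and C5ar1, and in nervous tissue C1q is known as a product mainly of macrophages and microglia. In dorsal root ganglion (DRG) RNA, 9 complement components and receptors were followed out of the 20194 genes in the deposited table, by matching their gene symbols: C1qa, C1qb, C1qc, C1s, C2, C3, Cfb, C3ar1 and C5ar1. The rule that picks them names symbols and uses no threshold on a measured value, although they were listed with earlier results of these data known. All 9 were tested.

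The samples were ipsilateral L4-6 DRG of male adult Sprague-Dawley rats aged 8 to 10 weeks, with 3 samples in each of 3 groups. The sham group had the operation without the nerve injury, the SNI group had spared nerve injury, a model of neuropathic pain in which branches of the sciatic nerve are cut and the sural branch is left, and the SNI_G15 group had the same injury and G15, an antagonist of the oestrogen receptor GPER, given intrathecally on day 5 at 1.8 μg/μl in 1 μl. Sham and SNI libraries are labelled as the controls for G15, the labels give 2% DMSO as the solvent and the methods 1%, and neither states whether these controls received it. The labels' protocol, worded alike for every sample, has intrathecal catheters placed on SNI day 5 and drugs given through them over 24 h, and gives no other time of sampling. A difference between SNI_G15 and SNI therefore cannot be told apart from one of the vehicle or its injection. By the methods each group had 3 rats, whereas a supplementary list of animals has 6, so whether a sample was 1 rat or a pool is not clear. All 3 SNI_G15 titles carry the name SNI1 beside a replicate number, while the SNI titles run from SNI1 to SNI3. The labels thus leave unclear whether the SNI_G15 samples came from separate rats. The p-values measure only the spread between 3 samples. The labels' extraction text names macrophages treated with exosomes instead of DRG. All 11 sensory neuron markers were present, with a summed level of 13597 to 16595 FPKM. Their presence shows neuronal RNA and does not measure how much of the RNA came from macrophages. FPKM is the number of fragments per kilobase of gene, scaled to library size, a level that can be compared between genes. Library totals lay between 18484557 and 18756736 estimated reads.

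The complement genes lie partly side by side. In the order of protein-coding genes in RefSeq's GRCr8 table, C1qb, C1qc and C1qa follow one another on chromosome 5, C2 and Cfb are neighbours on chromosome 20, C1r and C1s on chromosome 4, and C5ar2 and C5ar1 on chromosome 1. RefSeq promoter sequences were held for 4 of the 9 genes: C1qa, C1qb, C3 and C3ar1. C1qc, C1s, C2, Cfb and C5ar1 had no entry. The 200 bases before the transcription start are shown for C1qa and C1qb, the C1q genes with an entry, and for C3. C3 had the largest rise of the 9. The windows shown are all on the minus strand and written 5′ to 3′. They are chr5:154419934-154420133 for C1qa, chr5:154407828-154408027 for C1qb and chr9:2201340-2201539 for C3 in GRCr8, which is not known to be the build of the expression values. Capitals mark matches to the motifs searched.
C1qa: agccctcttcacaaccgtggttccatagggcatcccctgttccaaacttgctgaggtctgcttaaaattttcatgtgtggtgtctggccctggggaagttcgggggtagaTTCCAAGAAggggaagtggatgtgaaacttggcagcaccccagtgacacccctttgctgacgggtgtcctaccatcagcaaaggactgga
C1qb: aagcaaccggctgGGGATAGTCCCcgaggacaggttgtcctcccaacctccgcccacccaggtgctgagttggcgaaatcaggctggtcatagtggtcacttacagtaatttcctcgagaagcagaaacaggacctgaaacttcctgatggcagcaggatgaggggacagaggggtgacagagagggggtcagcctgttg
C3: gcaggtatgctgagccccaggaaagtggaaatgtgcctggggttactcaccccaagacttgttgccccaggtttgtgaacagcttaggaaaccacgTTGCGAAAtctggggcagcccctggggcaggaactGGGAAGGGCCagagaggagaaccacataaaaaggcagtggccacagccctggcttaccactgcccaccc

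Both strands were searched for 6 motifs. The C/EBP letters TTGCNNAA began 104 bases before the start of C3 and occur in 7.16% of 33469 RefSeq promoter windows of 200 bases. The NF-kB motif began 69 bases before the start of C3 and, as a pair of matches that overlap on opposite strands, 187 and 186 bases before that of C1qb, and occur in 13.7% of windows. The GAS letters TTCNNNGAA began 90 bases before the start of C1qa and occur in 6.07%. The AP-1 letters TGANTCA began 72 bases before the start of C3ar1 and occur in 4.97%. The interferon-stimulated response element and the PU.1 letters GAGGAAGT, present in 2.74% and 1.69% of windows, had no match in the 4 windows. These matches describe letters only.

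After nerve injury all 9 genes rose. Between SNI and sham, 9 of 9 had an adjusted p below 0.05 and were higher in SNI (edgeR quasi-likelihood test, Benjamini-Hochberg over 14305 genes), where 23.3% of all tested genes were called higher. Their median log2 fold change was 1.15, against 0.0010 over all tested genes. Because the 9 were listed with earlier results of these data known, these values are not a test of complement genes as a class. Of 29 other complement genes tested, 13 were higher and 5 lower. For each of the 9 members the FPKM of the 3 SNI libraries lay above all 3 sham libraries, as for 31.1% of tested genes. Because DRG is a mixture of cells, a change in the number of cells of a type and a change in the RNA per cell cannot be told apart here.

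The chains of C1q, the recognition unit of the classical pathway, had the highest levels of the 9 genes. Other complement genes stood higher, among them Clu at a mean of 657.9 FPKM and Cd59 at 456.5 in sham. C1qa, the A chain (NCBI gene 298566), had 39.6, 41.2 and 38.2 FPKM in the sham libraries, 101.1, 94.96 and 93.6 in SNI and 98.6, 102.7 and 112.4 in SNI_G15. C1qb, the B chain (NCBI gene 29687), had 38.8, 40.6 and 38.7 FPKM in sham, 87.0, 90.7 and 87.2 in SNI and 90.2, 94.4 and 102.9 in SNI_G15. C1qc, the C chain (NCBI gene 362634), had 52.1, 62.1 and 58.6 FPKM in sham, 102.2, 105.8 and 109.8 in SNI and 110.3, 120.3 and 121.1 in SNI_G15. In all 3 chains every injured library lay far above sham. The log2 fold change from sham to SNI was 1.25 (SE 0.05, adjusted p = 1.7e-08) for C1qa, 1.14 (SE 0.04, adjusted p = 1.3e-08) for C1qb and 0.85 (SE 0.06, adjusted p = 1.6e-06) for C1qc. The chains' shares of their summed FPKM shifted with this. C1qc made up 42.1 ± 1.89% of the sum in sham, 36.4 ± 1.30% in SNI and 36.9 ± 0.95% in SNI_G15 (SD, n = 3), and C1qa 29.1 ± 1.11%, 33.2 ± 1.41% and 32.9 ± 0.53%. These shares are a description and were not tested.

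C1s, the protease of the C1 complex that cleaves C4 and C2 (NCBI gene 192262), had 13.2, 13.7 and 12.8 FPKM in sham, 24.2, 24.0 and 22.9 in SNI and 27.2, 25.4 and 24.9 in SNI_G15. It rose by 0.81 on the log2 scale from sham to SNI (SE 0.05, adjusted p = 3.4e-07). C2 (NCBI gene 24231), the substrate of C1s that becomes the protease of the classical C3 convertase, had 10.5, 11.5 and 10.9 FPKM in sham, 25.0, 24.8 and 24.8 in SNI and 20.5, 20.5 and 19.8 in SNI_G15. The 3 groups of C2 values did not overlap, and SNI_G15 lay between sham and SNI. C2 rose by 1.15 on the log2 scale from sham to SNI (SE 0.05, adjusted p = 2.7e-08).

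C3, the central component (NCBI gene 24232), had the largest log2 fold change of the 9. Its level was 1.43, 1.56 and 1.43 FPKM in sham, 9.55, 8.88 and 9.37 in SNI and 6.23, 6.92 and 6.28 in SNI_G15. As for C2, the groups did not overlap and SNI_G15 lay in between. From sham to SNI, C3 rose 6.15-fold, a log2 fold change of 2.62 (SE 0.06, adjusted p = 4.0e-10). The estimated counts behind these values were 136 to 149 in sham and 592 to 657 in SNI_G15.

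Cfb, the protease of the alternative pathway convertase (NCBI gene 294257), had 2.88, 2.21 and 3.11 FPKM in sham, 8.87, 8.83 and 8.38 in SNI and 9.11, 8.71 and 9.63 in SNI_G15. All 6 injured libraries lay above sham and the injured groups overlapped. Cfb rose by 1.64 on the log2 scale from sham to SNI (SE 0.10, adjusted p = 5.0e-07).

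Of the receptors, C3ar1 binds C3a (NCBI gene 84007) and had 1.21, 0.90 and 1.38 FPKM in sham, 2.89, 2.45 and 2.48 in SNI and 2.67, 2.41 and 2.08 in SNI_G15. C5ar1 binds C5a (NCBI gene 113959) and had 3.37, 3.80 and 4.30 FPKM in sham, 6.74, 6.20 and 5.25 in SNI and 5.99, 6.56 and 5.76 in SNI_G15. Both were higher in every injured library than in any sham library. The log2 fold change from sham to SNI was 1.17 for C3ar1 (SE 0.15, adjusted p = 8.3e-05) and 0.63 for C5ar1 (SE 0.12, adjusted p = 0.0016), the smallest of the 9. The estimated counts of C3ar1 were not whole in 9 of 9 libraries, as happens where reads are divided between features, and its values are less certain. The other 8 genes had whole counts throughout.

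**Figure D1:**
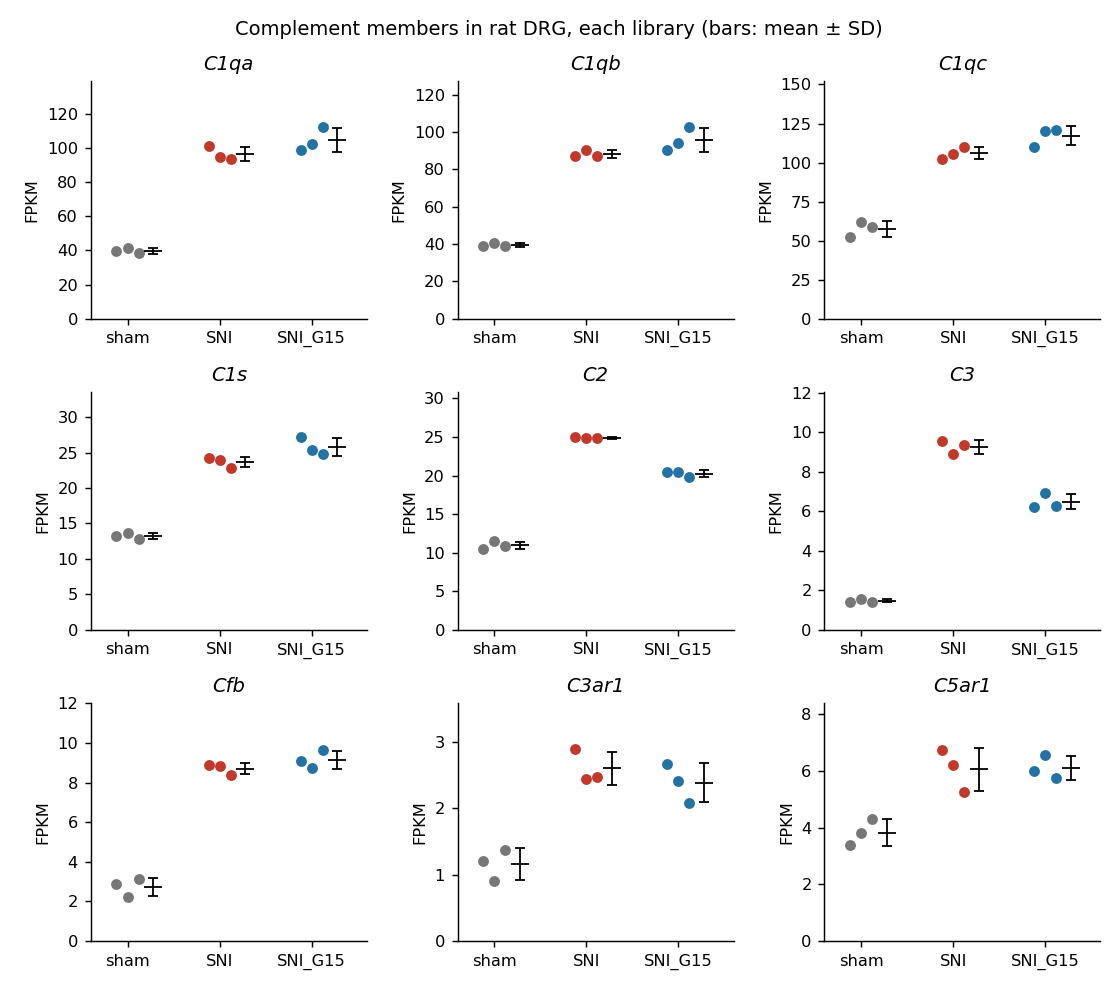
FPKM of each of the 9 complement genes (y axis, from 0) in each sham, SNI and SNI_G15 library (points), with the mean and SD of the 3 libraries of each group (bars). All injured libraries lie above sham for every gene, and for C2 and C3 the SNI_G15 points lie below SNI, at 19.8 to 20.5 and 6.23 to 6.92 FPKM.

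The order of the levels was alike in the 3 groups for the C1q chains and differed below them. In sham the order was C1qc, C1qa, C1qb, C1s, C2, C5ar1, Cfb, C3 and C3ar1, and only the ranges of C1qa and C1qb overlapped between neighbours. In SNI, C3 stood sixth at 9.27 ± 0.35 FPKM (SD, n = 3), above Cfb at 8.69 ± 0.27 and C5ar1 at 6.06 ± 0.75, and C2 stood above C1s, with no overlap between any neighbours. In SNI_G15 the order ran C1s, C2, Cfb, C3 and C5ar1 after the C1q chains. There the ranges of C3 and C5ar1 overlapped, as did those of neighbouring C1q chains. C3ar1 was lowest in all 3 groups.

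Between SNI_G15 and SNI, 2 of the 9 genes changed, C2 and C3, and both were lower in SNI_G15. Among all tested genes 7.25% were called lower and 7.98% higher. C3 fell by 0.50 on the log2 scale (SE 0.06, 95% interval -0.64 to -0.37, adjusted p = 0.0011), from 9.27 ± 0.35 to 6.48 ± 0.38 FPKM (SD, n = 3). C2 fell by 0.28 on the log2 scale (SE 0.04, 95% interval -0.38 to -0.19, adjusted p = 0.0032), from 24.9 ± 0.07 to 20.3 ± 0.42 FPKM. SNI_G15 libraries lay below all SNI libraries for both genes, as for 21.0% of tested genes. The difference in FPKM between SNI_G15 and SNI came to 35.8% of the rise from sham to SNI for C3 and to 33.2% for C2, 2 quantities that share the SNI libraries. SNI_G15 replicate 3 differed most from its group over all genes; without it the log2 fold change was -0.49 for C3 (adjusted p = 0.0010) and -0.27 for C2 (adjusted p = 0.0017).

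The remaining 7 genes did not pass the test between SNI_G15 and SNI, and their intervals bound what could have been missed. The log2 fold change was 0.13 for C1qa (95% interval -0.01 to 0.27, adjusted p = 0.18), 0.13 for C1qb (0.00090 to 0.27, adjusted p = 0.15) and 0.16 for C1qc (0.04 to 0.28, adjusted p = 0.080). It was 0.14 for C1s (0.03 to 0.25, adjusted p = 0.090) and 0.09 for Cfb (-0.05 to 0.23, adjusted p = 0.36). It was -0.11 for C3ar1 (-0.35 to 0.14, adjusted p = 0.54) and 0.02 for C5ar1 (-0.21 to 0.26, adjusted p = 0.90). None was called higher in edgeR, DESeq2 or limma with all libraries, while 3 had an unadjusted p below 0.05 in the higher direction in edgeR. C1qc was called without SNI_G15 replicate 1 (log2 fold change 0.21, adjusted p = 0.030) and C1s without SNI_G15 replicate 3 (0.16, adjusted p = 0.044). Both genes had SNI_G15 values above all SNI values, as did 17.3% of tested genes.

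Against sham, all 9 genes were higher in SNI_G15, where 21.4% of tested genes were called higher. The log2 fold change was 2.09 for C3 (SE 0.08, adjusted p = 4.2e-08), 1.70 for Cfb (SE 0.11, adjusted p = 2.1e-06), 1.36 for C1qa (SE 0.07, adjusted p = 3.6e-07) and 0.85 for C2 (SE 0.06, adjusted p = 3.2e-06). The lowest was C5ar1 at 0.63 (SE 0.11, adjusted p = 0.0013). For each of the 9 the SNI_G15 libraries lay above all sham libraries, as for 30.1% of tested genes. This comparison shares its libraries with the other comparisons.

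**Figure D2:**
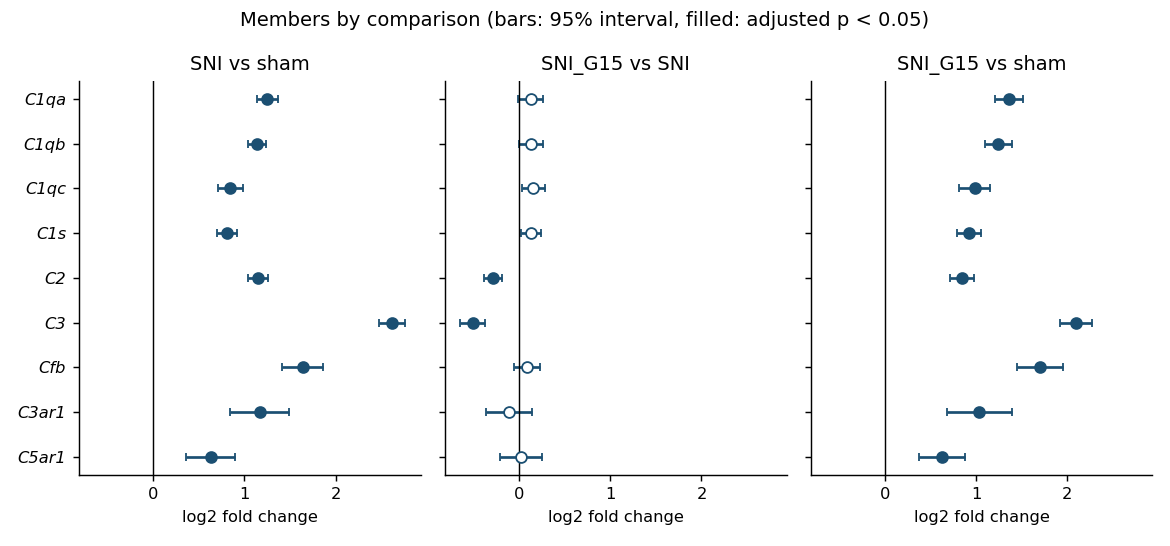
Log2 fold change of the 9 complement genes (x axis) with its 95% interval in SNI against sham, SNI_G15 against SNI and SNI_G15 against sham. Filled points passed an adjusted p of 0.05, which 9, 2 and 9 genes did, and C2 and C3 are the filled points in the middle panel, at -0.28 and -0.50.

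Markers of the cells that DRG holds moved in the same comparisons. Among all tested genes 23.3% were called higher between SNI and sham. Between SNI_G15 and SNI 7.98% were called higher and 7.25% lower. Of 12 macrophage markers, 11 were higher in SNI than in sham, the list's median log2 fold change was 1.14, and the summed level was 417.4 to 463.8 FPKM in sham and 911.0 to 956.8 in SNI. Between SNI_G15 and SNI, 5 of the 12 were higher and 1 was lower, and the sum was 1070 to 1094 FPKM in SNI_G15. None of the 12 was at 0 in any library. Set against this sum within each library, the summed C1q level was 0.315 ± 0.0070 in sham, 0.310 ± 0.0080 in SNI and 0.294 ± 0.016 in SNI_G15 (SD, n = 3). The ratio differed by -0.02 on the log2 scale between SNI and sham (exact two-sided permutation test, p = 0.4) and by -0.08 between SNI_G15 and SNI (exact permutation p = 0.3), and 3 against 3 samples cannot give less than 0.1. Lyz2 alone, at a mean of 353.2 FPKM in sham, made up most of the macrophage sum. Without it, a choice made after seeing the data, the ratio differed by -0.09 between SNI and sham, with no overlap between the groups (exact permutation p = 0.1, the smallest possible), and by -0.03 between SNI_G15 and SNI (exact permutation p = 0.7). The part of macrophage content in the rise of the C1q chains was not tested.

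Other lists moved between SNI and sham as well, where 23.3% of all tested genes were called higher and 22.4% lower. All 5 erythroid markers were higher, from 95.2 to 99.2 FPKM in sum in sham to 318.2 to 327.1 in SNI, and 6 of 8 neutrophil markers were higher, from 129.6 to 154.7 to 205.0 to 238.0. Of 5 markers of myelinating Schwann cells 4 were lower, from 5081 to 5197 FPKM in sum to 2780 to 2837, and of 11 sensory neuron markers 8 were lower and 2 higher, from 16165 to 16595 to 13597 to 14031. The part of these cells in the rise of the 9 genes was not tested.

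Other markers moved beside the lower C2 and C3, in a comparison where 7.98% of all tested genes were called higher and 7.25% lower. Between SNI_G15 and SNI all 5 erythroid markers were lower, from 318.2 to 327.1 FPKM in sum to 191.1 to 222.7, and all 7 fibroblast markers were higher, from 451.3 to 453.5 to 610.2 to 632.6. Of 6 tested T cell markers 2 were lower and 1 was higher, with sums of 7.31 to 7.78 FPKM in SNI and 5.15 to 6.43 in SNI_G15. Of 8 neutrophil markers 1 was higher, with sums of 205.0 to 238.0 and 217.3 to 260.3. The part of these cells in the C2 and C3 result was not tested. Complement is made in quantity by liver, and the liver markers Alb, Apoa1 and Fgb had group means of at most 0.24 FPKM. The liver list's other genes were present: Serpina1 had a mean of 15.6 FPKM in sham, 40.2 in SNI and 41.0 in SNI_G15. Ttr had 1.67, 0.90 and 2.36 FPKM, with a log2 fold change of 1.39 from SNI to SNI_G15 (adjusted p = 0.022). Its estimated counts were only 7 to 16 in SNI and 27 to 31 in SNI_G15.

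Ratios within a library, chosen after the values were seen, set the members against one another. C3 relative to the summed C1q chains was 0.011, 0.011 and 0.011 in the sham libraries, 0.033, 0.030 and 0.032 in SNI and 0.021, 0.022 and 0.019 in SNI_G15. C2 relative to Cfb was 3.66, 5.19 and 3.49 in sham, 2.81, 2.81 and 2.96 in SNI and 2.25, 2.35 and 2.05 in SNI_G15. For both ratios the 3 groups did not overlap. From SNI to SNI_G15 the first ratio fell by 0.64 and the second by 0.37 on the log2 scale (exact two-sided permutation test, p = 0.1 for each, the smallest that 3 against 3 allows). C1s relative to C1r, its partner protease, was 0.486 ± 0.014 in sham, 0.617 ± 0.021 in SNI and 0.683 ± 0.042 in SNI_G15 (SD, n = 3).

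The genes most like each member were ranked by Pearson's r of log2(FPKM + 1) over the 9 libraries among 13145 tested genes with an assigned symbol. These values describe 9 points that fall into 3 groups, so any gene that follows the groups scores high. C2 and C3 were each other's closest gene, with r = 0.998. Next to C2 came RT1-Ba, an MHC class II chain (r = 0.998), and the chemokine Cxcl13 (r = 0.995), and next to C3 came the protease inhibitor Serpina3n (r = 0.998) and the collagen chaperone Serpinh1 (r = 0.995). C1qa had Pdlim1, Coq8b and C1qb (r = 0.999, 0.999 and 0.998), and C1qb had Gap43, Tmbim1 and Sectm1b (r = 0.999, 0.999 and 0.998). C1qc had Pycard, Sp140 and Plod2 (r = 0.996, 0.996 and 0.994). C1s had Cyp27b1, Mmp19 and Cyb561 (r = 0.997 for each), and Cfb had Ezh2, Cdhr5 and Prrg4 (r = 0.997, 0.996 and 0.995). The receptors had lower values, with Irf5, P2rx7 and Mboat7l1 for C3ar1 (r = 0.993, 0.986 and 0.984) and Mrgprf, Mfng and Efhd2 for C5ar1 (r = 0.978, 0.978 and 0.976). Cfb, which neighbours C2, ranked 636 in likeness to it (r = 0.940).

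Beyond the 9 genes, 42 further complement genes were listed, of which 40 were in the table and 29 were tested. Between SNI and sham 13 of the 29 were higher and 5 lower, where 23.3% of all tested genes were called higher and 22.4% lower. The median log2 fold change of the 29 was 0.43. Between SNI_G15 and SNI 7 were higher and 3 lower, where 7.98% of all tested genes were called higher and 7.25% lower. The median of the 29 there was -0.00037, against 0.0063 over all tested genes. Between SNI_G15 and sham 15 were higher and 6 lower, where 21.4% of all tested genes were called higher and 21.9% lower. Several starters of the lectin pathway and parts of the membrane attack complex were barely present: Mbl2, Colec10, C5, C8a, C8b and C9 stayed below 1 FPKM in every library, and Mbl1 was not analysed here. C5, the source of the C5ar1 ligand C5a, had a mean of 0.14 FPKM in sham, 0.14 in SNI and 0.16 in SNI_G15.

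C4, which C1s cleaves beside C2, also rose after injury. It is encoded by C4a and C4b, and C4b had 4.53 ± 0.39 FPKM in sham, 10.8 ± 0.14 in SNI and 9.02 ± 0.52 in SNI_G15 (SD, n = 3). Its log2 fold change was 1.22 from sham to SNI (adjusted p = 9.4e-08) and -0.25 from SNI to SNI_G15 (adjusted p = 0.022). C4a had 7.42 ± 0.16, 13.6 ± 0.97 and 11.5 ± 0.85 FPKM, and its log2 fold change from SNI to SNI_G15 was -0.22 (adjusted p = 0.074). It was called lower there in the fit of all 9 libraries and without SNI_G15 replicate 3 (adjusted p = 0.044 for each). The C4 genes are near-identical copies and their estimated counts were not whole in 9 of 9 libraries, so the split between them is uncertain. The call for C4b was lost without any one of the SNI libraries or without SNI_G15 replicate 1 or 2 (adjusted p = 0.051 to 0.087) and with replicate numbers as a block (adjusted p = 0.058). C1r, the protease that activates C1s, rose by 0.47 on the log2 scale after SNI (adjusted p = 7.4e-06) and had a log2 fold change of -0.0075 between SNI_G15 and SNI (adjusted p = 0.92).

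In the alternative pathway, factor D (Cfd) and properdin (Cfp) were higher in SNI_G15 than in SNI. Factor D cleaves factor B once it is bound, and properdin holds the alternative convertase together. Cfd had 3.72 ± 0.61 FPKM in sham, 5.81 ± 1.07 in SNI and 12.8 ± 0.74 in SNI_G15 (SD, n = 3), with a log2 fold change of 1.15 from SNI to SNI_G15 (SE 0.13, adjusted p = 9.2e-04). Cfp had 4.12 ± 0.16, 7.52 ± 0.42 and 10.9 ± 1.3 FPKM, with a log2 fold change of 0.55 (SE 0.10, adjusted p = 0.0076). Both had risen after SNI, by 0.61 for Cfd (adjusted p = 0.019) and 0.84 for Cfp (adjusted p = 2.7e-05), but the Cfd call was lost without sham replicate 1 or 3 or SNI replicate 1 (adjusted p = 0.058, 0.065 and 0.082). Fcna and Fcnb, ficolins that start the lectin pathway, were higher in SNI_G15 than in SNI by 1.32 and 0.54 on the log2 scale (adjusted p = 0.0047 and 0.0088). Their values from sham to SNI were -0.23 and 0.04 (adjusted p = 0.49 and 0.83). Fcna was low, at a mean of 1.18 FPKM in SNI (21 to 34 estimated counts) and 2.93 in SNI_G15 (63 to 76). C7, of the membrane attack complex, was higher in SNI than in sham by 0.44 (adjusted p = 3.3e-04) and higher again in SNI_G15 by 0.42 (adjusted p = 0.0011).

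Serping1, the C1 inhibitor that removes C1r and C1s, was higher in SNI than in sham and higher again in SNI_G15. It had 67.1 ± 3.9 FPKM in sham, 124.3 ± 6.7 in SNI and 147.4 ± 5.4 in SNI_G15 (SD, n = 3). Its log2 fold change was 0.86 from sham to SNI (adjusted p = 5.4e-07) and 0.26 from SNI to SNI_G15 (adjusted p = 0.011), and the latter call was lost without SNI replicate 2 or 3 (adjusted p = 0.061 and 0.062). Cfi, factor I, which cleaves C3b, rose by 0.85 after SNI (adjusted p = 6.7e-06). Its log2 fold change between SNI_G15 and SNI was -0.00037 (adjusted p = 0.997).

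Of 5 tested fluid-phase regulators, Serping1 and Cfi included, 2 were called higher and 2 lower after SNI. The 5 tested membrane regulators had 1 higher and 3 lower, where 23.3% of all tested genes were called higher and 22.4% lower. Clusterin (Clu) fell by 0.35, vitronectin (Vtn) by 0.74, decay-accelerating factor (Cd55) by 0.36 and Susd4 by 0.54 on the log2 scale, with adjusted p = 9.7e-06, 9.4e-05, 1.8e-05 and 4.6e-07. Csmd1 fell by 0.16 (adjusted p = 0.026), a call lost in 9 of 16 alternatives, among them the fits without sham replicate 1 or 3 or SNI replicate 1 or 2 (adjusted p = 0.057 to 0.098). Cd59, which blocks the membrane attack complex, rose by 0.50 (adjusted p = 2.8e-06), with counts not whole in 9 of 9 libraries. Between SNI_G15 and SNI Susd4 fell by 0.22 (adjusted p = 0.015), a call lost without any one of the SNI libraries (adjusted p = 0.060 to 0.068). There the values were 0.10 for Cd55 (adjusted p = 0.18), -0.02 for Cd59 (adjusted p = 0.79), 0.02 for Clu (adjusted p = 0.76) and -0.15 for Vtn (adjusted p = 0.41). Cd55 was called higher without SNI_G15 replicate 3 (0.14, adjusted p = 0.023). Cpn1, a carboxypeptidase N subunit that inactivates C3a and C5a, fell by 0.92 between SNI_G15 and sham (adjusted p = 0.010), and its value between SNI and sham was -0.61 (adjusted p = 0.052), called lower in 6 of 16 alternatives (adjusted p = 0.028 to 0.049).

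Of 4 tested genes listed as receptors for complement-coated targets, 3 rose with injury, all of them integrin chains. Itgam, Itgax and Itgb2 encode the integrin chains of complement receptors 3 and 4, and rose by 1.82, 2.20 and 1.48 on the log2 scale from sham to SNI (adjusted p = 1.8e-06, 1.4e-06 and 2.7e-07). Itgax fell by 0.57 from SNI to SNI_G15 (adjusted p = 0.011), from 1.62 ± 0.021 to 1.10 ± 0.086 FPKM (SD, n = 3), while Itgam had a log2 fold change of -0.0064 (adjusted p = 0.96) and Itgb2 one of -0.19 (adjusted p = 0.13). Counts of Itgax and Itgb2 were not whole in 7 and 9 libraries. C5ar2, a further receptor for C5a, rose by 0.93 from sham to SNI (adjusted p = 6.9e-05) and had a value of 0.07 between SNI_G15 and SNI (adjusted p = 0.61). The remaining gene of this list is named complement receptor 1-like (Cr1l), and no value here bears on whether it acts as such a receptor. Cr1l had a log2 fold change of -0.06 from sham to SNI (adjusted p = 0.48), with overlapping groups. It was higher in SNI_G15 than in SNI by 0.26 (adjusted p = 0.041), and 7 of 16 alternatives did not keep that call. They were both limma fits, the replicate block and the fits without SNI replicate 1, 2 or 3 or SNI_G15 replicate 2, with adjusted p between 0.050 and 0.15.

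**Figure D3:**
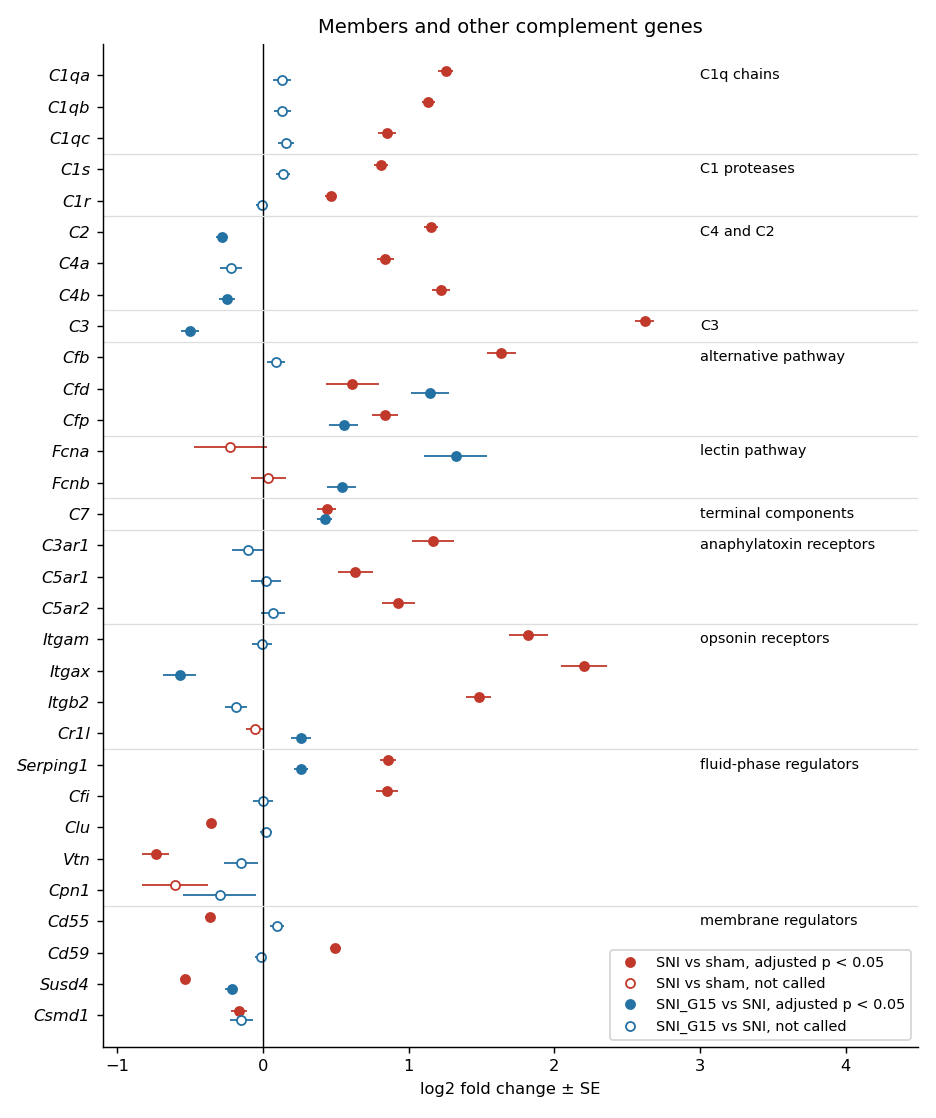
Log2 fold change ± SE (x axis) of the 9 complement genes and the 22 other complement genes named, grouped by the list each was placed in. SNI against sham is red and SNI_G15 against SNI blue, with filled points at an adjusted p below 0.05. C2, C4b, C3 and Itgax carry filled blue points below 0 and red points above 0, whereas Cfd, Cfp, C7 and Serping1 carry both above 0.

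**Figure D4:**
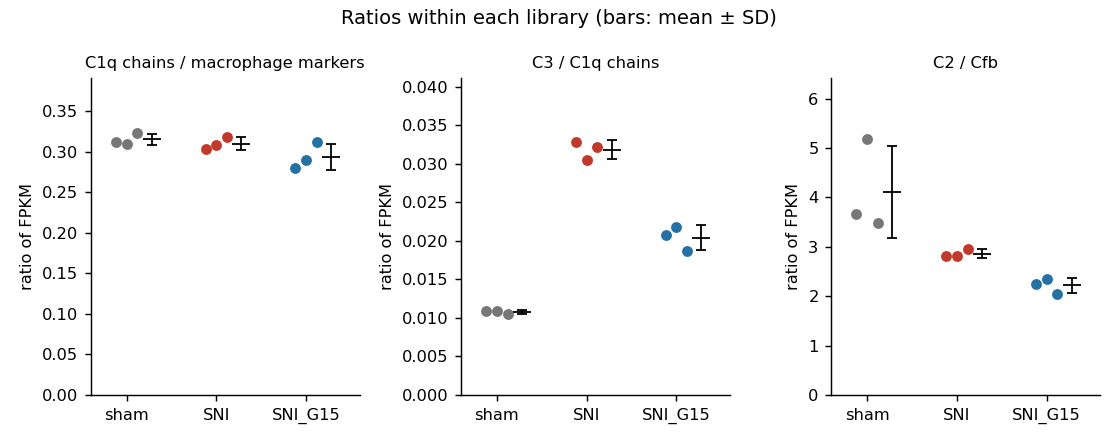
Ratios of FPKM within each library (y axis, from 0) for summed C1q chains over summed macrophage markers, C3 over C1q chains and C2 over Cfb, with the mean and SD of 3 libraries per group. The first ratio, whose denominator is mostly Lyz2, overlaps between groups, at 0.280 to 0.323 over all libraries, and in the other 2 panels no groups overlap.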

How the data were processed

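DRG RNA-Seq of 3 sham, 3 SNI and 3 SNI_G15 samples was used. Per the file headers, the authors deposited 2 units: FPKM, scaled to library size and to gene or transcript length, and unscaled estimated counts, which may be fractional. Columns named for a control were taken as sham, the group the other names leave. The submitters' processing notes name GRCm38 and mm10, mouse builds, although the samples and the NCBI gene IDs are of rat. The build of the values is thus unclear and no coordinates come from them. RefSeq's GRCr8 tables gave promoters and gene order.

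For each comparison, edgeR 4.0.16 (R 4.3.3) was run on the rounded gene counts of its 6 libraries, with TMM scaling and quasi-likelihood F tests. Genes entered where any library reached an FPKM of 1, which 14305 did. The Benjamini-Hochberg adjusted p threshold was 0.05. Alternatives used DESeq2 1.42.0, limma 3.58.1 on log2(FPKM + 1) and log2(FPKM + 0.1), which understates changes of low genes, other normalizations and filters, 1 fit of all 9 libraries, a block on replicate number, and omission of single replicates. On simulated counts of SNI against sham, in which 200 of 14305 genes had a log2 change of 1, 96.5% of these were found, with 14 false calls. The simulation gave every gene the same dispersion. It does not measure error rates for the smaller changes called between SNI_G15 and SNI. Averaged over genes, replicates of a group differed by more than sampling noise (chi-square per degree of freedom 2.70 to 9.21). That average does not describe each gene. Estimated counts of C2 lay between 1204 and 1213 in SNI, a narrow spread, and those of C1qc between 981 and 1173 in sham, a wide one.

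The 9 genes and all lists were chosen with earlier results of these data known. Named genes are the 9, other complement genes called in any comparison or listed by name (C1r, C4a, C4b, Cfd, Serping1, Itgam, C5ar2, Cd55 and Cd59), and for each of the 9 the 3 most similar tested genes with an assigned symbol. A gene that this rule selects is not reported here and was left out of the lists. Of the marker lists for B cells, endothelium, satellite glia and myelinating Schwann cells, 0 of 1, 4 of 6, 2 of 5 and 4 of 5 tested genes were called between SNI_G15 and SNI. Among all tested genes 7.98% were called higher there and 7.25% lower. Transcript tables were used only to count transcripts and their shares; TPM, group averages and the other deposited files were not used.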

Additional observations from a re-analysis of the deposited data

How the results depend on the processing

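The 9 genes stayed called higher in SNI against sham and in SNI_G15 against sham, and C2 and C3 lower in SNI_G15 against SNI, under each of 16 alternatives per comparison. Of 432 refits of single members, 428 kept direction and side of the threshold. Without 1 replicate, 0 to 1 members were called higher in SNI_G15 against SNI and 2 to 2 lower. The value of C5ar1 there ranged from -0.072 to 0.11. Of the other complement genes, 1 to 4 were called lower there, with 1 left without SNI replicate 1, 2 or 3. Direction also turned, for values that were not called, for Fcnb in SNI against sham (-0.033 to 0.13 without 1 replicate) and in SNI_G15 against SNI for C1r (-0.025 to 0.016), Itgam (-0.056 to 0.026), Clu (-0.014 to 0.048), Cd59 (-0.044 to 0.0036) and Cfi (-0.030 to 0.059, and 0.00098 without the FPKM filter, 0.0015 with filterByExpr and 0.00089 with the replicate block). The cause was not tested.

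The replicate numbers did not pair the libraries: 0 of 9 correlations of same-numbered libraries were above 0.1 (-0.13 to 0.07). With the replicate block, 9, 2 and 9 members were called, and C2 and C3 had adjusted p of 0.022 and 0.0071 in SNI_G15 against SNI. For the other complement genes the block gave 13 higher and 6 lower in SNI against sham, 6 and 2 in SNI_G15 against SNI and 15 and 6 in SNI_G15 against sham.

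The log2 difference of the C1q to macrophage ratio without 1 replicate was -0.04 to -0.0057 in SNI against sham, -0.12 to -0.04 in SNI_G15 against SNI and -0.15 to -0.07 in SNI_G15 against sham. Without Lyz2, a choice made after seeing the data, it was -0.09, -0.03 and -0.12 (exact permutation p = 0.1, 0.7 and 0.1). Without Cd163, Mrc1 and Trem2 it was -0.04, -0.07 and -0.11 (exact permutation p = 0.3, 0.3 and 0.1). Counts of Lyz2 were not whole in 9 libraries, nor were those of Cx3cr1 and Cd14, which stayed in the sum. The 3 ratios chosen after their values were seen did not overlap between groups in any comparison. Leaving out 1 replicate therefore could not turn their direction and is no check of them. With 3 libraries per group and 56 to 83 estimated counts in sham, depth limits C3ar1 most among the 9.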
